A study of Mus musculus with 12 samples.

Results

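Whole corneas of mice lacking both Dscr1 and Apoe were compared with corneas of wild-type mice, using 4 of the 12 Affymetrix arrays of the series. The arrays were chosen by their titles: 2 carried RNA of intact (not sutured) corneas of Dscr-1-/- and ApoE-/- double null mutants, called the double knockout or DKO here, and 2 carried RNA of intact wild-type corneas. All samples are given as strain C57BL/6J. The labels call the arrays of a group biological replicates; neither age, sex nor the number of animals per array is stated. Dscr1 is the older name of Rcan1, and the gene carries that symbol on the array. Of 18194 genes with a probe set of their own, 12732 were bright enough to be tested. Brightness was the mean over all 8 intact arrays, the DKO included. A gene at the floor in wild type was therefore tested only where other arrays raised that mean. In lists of such genes, the share of tested members that rose and their median are in part set by this filter. Intact corneas of each single knockout, with 2 arrays a genotype, are used below where a direct comparison shows what belongs to the double knockout.

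Rcan1 encodes a protein that binds calcineurin and limits the dephosphorylation of NFAT transcription factors, and it is itself an NFAT target in endothelial cells. Apolipoprotein E carries cholesterol and other lipids between cells and is a ligand of the LDL receptor family; mice without it have high blood cholesterol. The cornea is normally clear and free of vessels: a stratified, non-cornified epithelium lies on a collagen stroma kept in order by small proteoglycans, with a pumping endothelium behind it. When corneal epithelium turns towards a skin-like state, it makes the keratins and cornified envelope proteins that the epidermis normally makes.

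The targeted genes were read first. The brighter Rcan1 probe set gave intensities of 630.4 and 649.5 on the wild-type arrays and 379.6 and 331.7 on the DKO arrays, a log2 difference of -0.84 ± 0.20 (SE; limma, Benjamini-Hochberg adjusted p = 0.0221 over all genes tested). Rcan1 was therefore lower on both DKO arrays, though still well inside the measured range, and its call was lost when any 1 of the 4 arrays was left out (adjusted p from 0.0546 to 0.147). The other Rcan1 probe set read 30.4 and 35.2 in wild type and 20 and 12.8 in the DKO. No source says where the probes lie relative to the deleted part of the gene, so this reading checks the label only in part. Apoe read 1030.5 and 776.5 in wild type and 32.5 and 22.7 in the DKO, a log2 difference of -4.87 ± 1.68 with an adjusted p of 0.0805. That large error came from the single knockouts, which share the fit: Apoe stood at 849.3 and 7.5 on the arrays labelled Apoe knockout and at 1272.0 and 316.8 on those labelled Dscr1 knockout, and the text labels of the second Dscr1 knockout array name both genotypes. With the library labelled Apoe knockout 1 and the library labelled Dscr1 knockout 2 left out, Apoe had the same difference at an adjusted p of 0.000389. The 4 sutured arrays were 1 each of wild type day 5, wild type day 7, Dscr1 transgenic day 7 and Dscr1 knockout day 5. In that order, Rcan1 read 663.6, 579.7, 548.3 and 479.1, and Apoe read 1124.2, 928.8, 905.9 and 975.2.

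The DKO arrays were less alike than the wild-type arrays. Pearson's r over all probe sets was 0.949 for the DKO pair and 0.978 for the wild-type pair, and 1160 of the tested genes stood 2-fold or more apart between the DKO arrays against 221 between the wild-type arrays. The authors scaled every array to a trimmed mean of 100.0, and array medians were 16.6 and 16.7 in wild type and 21.1 and 18.2 in the DKO. Of the sex-linked genes, Xist read 14.9 and 8.9 in wild type and 4256.9 and 19.6 in the DKO, and Eif2s3y read 633.0 and 675.5 against 4.2 and 521.5. The first DKO array thus carried the sex-linked pattern opposite to the other 3 arrays of this comparison. All single-knockout arrays shared the pattern of DKO 1. Xist read 4622.1 and 4598.0 on the arrays labelled Apoe knockout and 4104.0 and 5385.2 on those labelled Dscr1 knockout. Genotype and sex-linked pattern thus overlap in part, and the share of this pattern in other results was not tested. No sex-linked gene passed the test in the comparison of genotypes (0 of 4; 1 rose and 3 fell without DKO 2). Where leaving out an array moves a count of 3 or more calls by more than 1.5 times, that is therefore given or said. The smaller counts that the text turns on are treated alike.

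In the double knockout, 1433 genes were higher than in wild type (11.3% of those tested) and 1104 were lower (8.67%), at an adjusted p below 0.05 (limma), so that 19.9% changed in either direction. At an unadjusted p below 0.05 the count was 4373 (34.3%). Without any test, the 2 DKO values lay above both wild-type values for 31.8% of genes and below both for 34.6%, so 2 arrays a group often separate. The intensities of every called gene fell into separate ranges in the 2 genotypes, and no called gene had its DKO arrays on opposite sides of the wild-type mean. With 2 arrays a group the threshold makes both nearly certain, so they add no support to the calls. Rises were larger than falls: called rises had a median log2 difference of 1.97 and called falls of -1.10, while the median of all genes tested was -0.02. A difference of at least 16-fold was reached by 194 rises and 12 falls. Leaving out 1 array lowered the rises to 708 without wild type 1, 542 without wild type 2, 1002 without DKO 1 and 1295 without DKO 2. The falls depended more on single arrays, with 212, 130, 537 and 903 in the same order. Many genes that rose were near the bottom of the scale in wild type, so the size of their fold change depends on the constant of 3.6 added before taking log2.

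**Figure D1:**
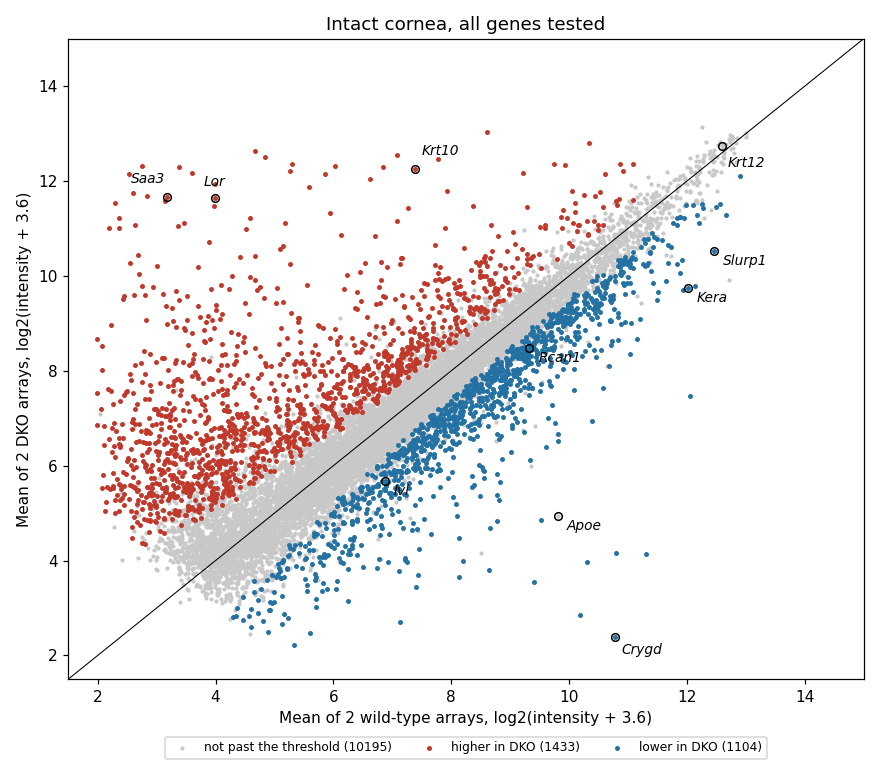
Mean log2(intensity + 3.6) of each of the 12732 tested genes on the 2 wild-type arrays (x axis) and the 2 DKO arrays (y axis). Genes higher in the DKO (1433) and lower in the DKO (1104) at an adjusted p below 0.05 are coloured, and the genes discussed in the text are marked; the cloud of rises at the left holds genes near the bottom of the scale in wild type.

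Genes of the cornified envelope were prominent among the rises. Small proline-rich proteins are short structural proteins that are cross-linked into the envelope of cornifying epithelium. All 8 tested members rose (11.3% of all genes did), with a median log2 difference of 8.25 against -0.02 over all genes. Sprr2f read 3.6 and 1.5 in wild type and 3022.1 and 3867.3 in the DKO, a log2 difference of 9.14 ± 0.40 (adjusted p = 2.57e-05). Sprr2d went from 0.5 and 1.5 to 1627.1 and 2588.7, which is 8.81 ± 0.54 (adjusted p = 0.000161). Both genes went from the floor of the scale to among its brighter signals. The Sprr2 genes are near-identical copies, so their probe sets may share signal. With any 1 array left out, 7 of the 8 still passed.

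The Sprr genes lie together on chromosome 3, beside Lor, Ivl, Flg and Rptn, in the epidermal differentiation complex. Because so many of these neighbours moved together, the 250 bases before their starts were searched for TGANTCA, the core of the AP-1 element, which reads the same on both strands. This motif was chosen after the values were seen. It was found before 7 of the 8 Sprr genes that rose (87.5%) and before 7 of 19 late cornified genes with a promoter sequence (36.8%). Over the whole promoter table it stood before 2113 of 27025 genes (7.82%). The Sprr2 genes are near-identical copies, and the bases around their matches are much alike, so these matches are not independent of each other. A match is a description of letters and not evidence of binding. The following stretches, from RefSeq sequence of build GRCm38.p6, each hold the match in capitals with the bases around it, for 4 genes that rose and for Ivl, the member of the complex that fell. Sprr2f is at chr3:92364950-92365036 (plus strand), Sprr2d at chr3:92338907-92338993 (plus), Sprr1b at chr3:92438844-92438930 (minus), Lor at chr3:92083144-92083230 (minus) and Ivl at chr3:92573805-92573891 (minus). Each lies upstream of the gene's start, with the match 197, 193, 111, 48 and 116 bases before it in that order.
Sprr2f: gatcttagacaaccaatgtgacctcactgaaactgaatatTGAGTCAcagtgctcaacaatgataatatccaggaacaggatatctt
Sprr2d: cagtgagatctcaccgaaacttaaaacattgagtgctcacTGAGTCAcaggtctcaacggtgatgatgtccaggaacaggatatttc
Sprr1b: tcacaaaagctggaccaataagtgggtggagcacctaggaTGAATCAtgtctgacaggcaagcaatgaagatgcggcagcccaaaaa
Lor: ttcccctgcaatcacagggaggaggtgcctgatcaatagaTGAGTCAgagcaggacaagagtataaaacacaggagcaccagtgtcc
Ivl: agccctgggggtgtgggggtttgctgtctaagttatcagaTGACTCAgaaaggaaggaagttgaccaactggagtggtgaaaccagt
Ivl, the gene that fell, carries the motif as well. The part of the motif in the direction of these changes was not tested. Among the Sprr genes, Sprr3 had no match in its window and rose by 8.92 ± 0.59 on the log2 scale (adjusted p = 0.000201).

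Of 19 tested genes of the late cornified envelope and granular layer, 16 rose and 1 fell, with a median log2 difference of 5.54. Lor, which encodes the main protein of the epidermal envelope, read 10.8 and 14.1 in wild type and 3186.5 and 3241.9 in the DKO (7.66 ± 0.17, adjusted p = 1.34e-06). It was at the floor on both wild-type arrays and nearly equal on both DKO arrays. Flg, which encodes the precursor of filaggrin in the granular layer, went from 2.5 and 2.5 to 1046.5 and 574.1 (7.0 ± 1.22, adjusted p = 0.00725). Ivl, for the early envelope protein involucrin, went the other way, from 130.8 and 99.4 to 49.0 and 45.9 (-1.21 ± 0.27, adjusted p = 0.0178). The fall of Ivl was lost without any 1 of the 4 arrays, whereas the count of rises stayed between 11 and 15. Casp14 and Asprv1, for proteases that act on filaggrin, did not pass, with log2 differences of -0.37 and -0.48.

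Among keratins, the filament proteins of epithelial cells, 11 of 23 tested genes rose and none fell. Krt10, a keratin of cornifying epidermis, read 164.6 and 164.2 in wild type and 4129.9 and 5826.7 in the DKO (4.87 ± 0.21, adjusted p = 2.57e-05). Krt16, a keratin of hyperproliferating and wounded epidermis, went from 59.4 and 32.7 to 3624.0 and 3832.0 (6.29 ± 1.05, adjusted p = 0.00622). Krt17, another wound keratin, rose by 5.99 ± 0.62 (adjusted p = 0.0011), and Krt14, the basal keratin that also stands in the corneal epithelial list, by 2.63 ± 0.36 (adjusted p = 0.00321). Krt12, which marks corneal epithelium, read 7260.9 and 5291.1 in wild type and 7841.2 and 6034.1 in the DKO, with overlapping ranges (0.15 ± 0.24, adjusted p = 0.699). Krt5, the partner of Krt14, read 6860.2 and 5464.8 against 4421.4 and 4925.2 (-0.39 ± 0.16, adjusted p = 0.135). Without wild type 2, 7 keratins passed, and the call of Krt16 was lost (adjusted p = 0.0598).

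Proteases and inhibitors of the upper epidermis followed. Kallikreins are serine proteases that cut the junctions of shedding cells, and Spink5 inhibits them; 8 of 9 tested genes rose, with a median of 4.72. Klk13 read 6.9 and 3.9 in wild type and 3021.6 and 3074.6 in the DKO (8.43 ± 0.45, adjusted p = 8.25e-05). Klk8 (5.48 ± 0.50), Klk12 (5.29 ± 0.90) and Klk10 (5.13 ± 0.70) were the next largest, and of these Klk12 was not called without wild type 2 (adjusted p = 0.0557). Of the clade B serpins, which inhibit proteases inside and around epithelial cells, 5 of 9 rose. Serpinb3a went from 18.9 and 7.6 to 3668.2 and 4141.5 (7.94 ± 0.31, adjusted p = 2.57e-05), and Serpinb2 rose by 6.26 ± 0.62 (adjusted p = 0.000982).

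Antimicrobial proteins of surface epithelia rose in 11 of 12 tested cases, with a median of 4.39. Another 4 of the 16 on the array were too dim to test. Slpi, a secreted inhibitor of neutrophil elastase, read 42.3 and 28.3 in wild type and 5738.3 and 3882.9 in the DKO (6.95 ± 0.34, adjusted p = 4.95e-05). Wfdc12, of the same protein family, went from 3.9 and 2.4 to 1025.3 and 763.4 (7.05 ± 0.54, adjusted p = 0.000377). The beta-defensin Defb1 was the exception, at 2187.0 and 2380.1 against 1897.2 and 1501.0 (-0.43, adjusted p = 0.142). Of S100 proteins, 3 of 11 rose. S100a8, a partner in calprotectin, which is made by neutrophils and by stressed keratinocytes, went from 24.6 and 19.5 to 5361.4 and 7603.8 (7.97 ± 0.62, adjusted p = 0.000388).

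The desmosome list, of proteins that rivet epithelial cells together, was divided. Dsc1, the desmocollin of the cornifying layers, went from 17.6 and 26.7 to 1025.2 and 1858.4 (5.77 ± 0.32, adjusted p = 9.31e-05) and was the 1 rise among 12 tested genes. Dsg1a went from 2336.0 and 2380.0 to 420.2 and 700.9 (-2.11 ± 0.44, adjusted p = 0.0142). Dsg2 (-0.88 ± 0.17) and Pkp2 (-1.18 ± 0.33) were among the 4 falls. None of the 4 falls passed without wild type 1, wild type 2 or DKO 1, and 3 passed without DKO 2; with probe sets averaged there were 2.

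**Figure D2:**
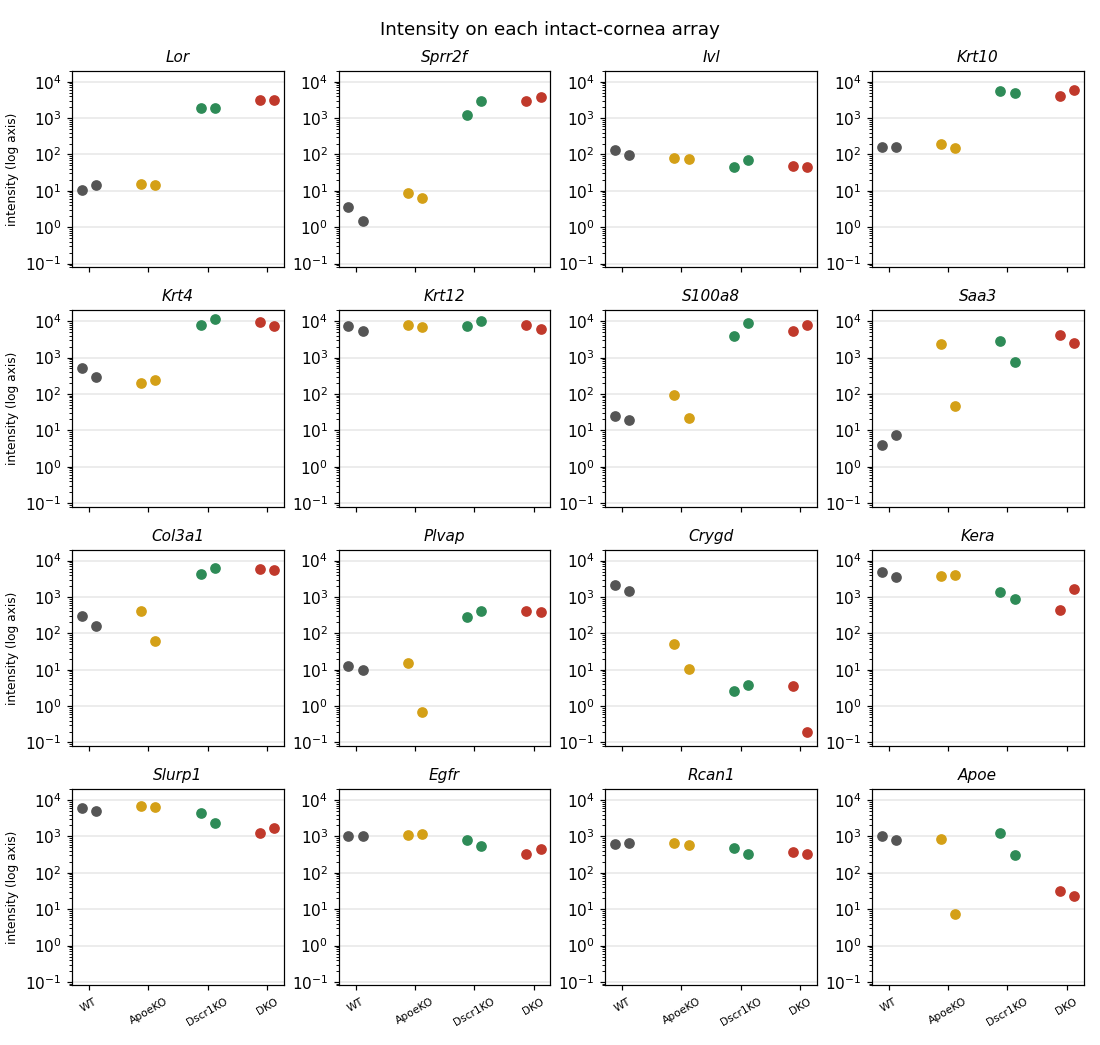
Deposited intensity (log axis) of 16 genes on each intact array, with the genotypes side by side and 2 points a genotype. Lor, Sprr2f and Krt10 sit near the floor or low in wild type and in the arrays labelled Apoe knockout and high in the DKO and in the arrays labelled Dscr1 knockout, Krt12 overlaps between the genotypes, and Crygd is at the floor in the DKO.

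Of 17 tested genes that mark the cornea's own epithelium, 1 rose (Krt14) and 3 fell, and the median was -0.28. Intensities of 9 of the 17 lay lower in the DKO without overlap, against 34.6% of all genes, and 2 lay higher. Slurp1, a secreted protein very abundant in healthy corneal epithelium, read 6236.7 and 5069.1 in wild type and 1282.8 and 1691.1 in the DKO (-1.93 ± 0.29, adjusted p = 0.0041). Elf3, an epithelial transcription factor, fell by 1.14 ± 0.21 (adjusted p = 0.00838). Aqp5, a water channel, fell by 0.80 ± 0.18 (adjusted p = 0.0197). Pax6, the transcription factor that eye epithelia depend on, read 3261.1 and 3118.4 against 1696.4 and 1133.1, lower on both DKO arrays, but did not pass the test (-1.20 ± 0.38, adjusted p = 0.0623). Aldh3a1, an abundant corneal enzyme, differed by -0.16 ± 0.19 (adjusted p = 0.607). Of the 5 marker genes chosen for corneal epithelium, Krt12 (given above) and Aldh3a1 overlapped between the genotypes. Pax6, Krt5 and Slurp1 lay lower on both DKO arrays than on either wild-type array. The 3 falls of the list were 1 without wild type 1, 5 with the replicate number as a block or without the 2 libraries of doubtful Apoe level, and 6 with quantile normalization or with probe sets averaged; the call of Elf3 was lost without either wild-type array (adjusted p = 0.071 and 0.0579), and that of Aqp5 without wild type 1 or DKO 2 (0.125 and 0.0864).

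Of 14 tested tight junction genes, 8 fell and 1 rose, with a median of -0.82. Tjp3, a scaffold protein of the junction, went from 553.3 and 552.8 to 182.5 and 230.9 (-1.41 ± 0.32, adjusted p = 0.0203). Cgn, for cingulin, fell by 1.17 ± 0.29 (adjusted p = 0.0274), and Cldn3 by 1.74 ± 0.46 (adjusted p = 0.0348). Cldn1, the claudin of the epidermal barrier, rose from 43.2 and 41.4 to 135.0 and 93.9 (1.34 ± 0.31, adjusted p = 0.0214). Of the 8 falls, 1 passed without wild type 1 or wild type 2, 4 without DKO 1 and 5 without DKO 2, and none of the 4 genes named passed in every such fit.

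Of 12 tested EGF receptors and ligands, which drive epithelial growth and repair, 5 fell and none rose. Egfr read 1014.6 and 1038.5 in wild type and 334.2 and 463.5 in the DKO (-1.37 ± 0.24, adjusted p = 0.0069). Lrig1, a restraint on EGF receptors and a stem cell marker, went from 1026.1 and 1050.1 to 383.8 and 292.5 (-1.62 ± 0.24, adjusted p = 0.00402). The ligands Egf (-1.05 ± 0.25) and Btc (-0.94 ± 0.19) fell as well; Egf was lost with any 1 of the 4 arrays left out (adjusted p from 0.0562 to 0.15), and Btc without either wild-type array (0.0723 and 0.132). Counts without 1 array were 1, 1, 3 and 4 (without wild type 1, wild type 2, DKO 1 and DKO 2), and Egfr missed the threshold without either wild-type array (adjusted p = 0.0519 and 0.0635). When all probe sets of Egfr were averaged, its difference was -0.60 (adjusted p = 0.0542), and that of Btc, treated in the same way, was -0.74 (adjusted p = 0.16).

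Markers of conjunctiva and goblet cells, the neighbouring surface epithelium, were higher. Of 14 tested genes, 7 rose and 2 fell (4 fell without the 2 libraries of doubtful Apoe level), and their summed intensity over the 18 members on the array was 9677.5 and 8613.7 in wild type and 23197.5 and 18964.7 in the DKO. Muc5ac, the gel-forming mucin of goblet cells, read 1.3 and 7.5 against 388.7 and 106.7 (4.82 ± 0.75, adjusted p = 0.00482). Krt4, a keratin of conjunctiva and other wet epithelia, went from 506.3 and 294.4 to 9577.1 and 7276.4 (4.42 ± 0.30, adjusted p = 0.000223), a large share of that sum. Muc5b (4.69 ± 0.88) and Agr2 (4.43 ± 0.82) rose too. In a bulk sample, more cells of a type and more RNA per cell cannot be told apart, and this holds for every cell type below. The 2 falls of the list were 1 without wild type 1, wild type 2 or DKO 2. Muc5b was not called without wild type 2 (adjusted p = 0.0848), nor Agr2 without wild type 1, wild type 2 or DKO 1 (0.0522 to 0.0761).

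In the stroma, the changes were uneven. Among 10 tested small proteoglycans, which space collagen fibrils, 2 rose (1 without wild type 2 or DKO 2) and 1 fell. Kera, for keratocan, the keratan sulphate proteoglycan of keratocytes, read 4992.8 and 3451.6 in wild type and 441.3 and 1677.0 in the DKO (-2.26 ± 0.55, adjusted p = 0.0253). Its call was lost without wild type 1, wild type 2 or DKO 1 (adjusted p from 0.0571 to 0.147). Lum, for lumican, differed by 0.53 ± 0.27 (adjusted p = 0.213) and Dcn, for decorin, by 0.20 ± 0.21 (adjusted p = 0.542). The rises were Aspn (4.63 ± 0.66), for asporin, and Omd (3.03 ± 0.58), for osteomodulin, both known mainly from cartilage and bone; Omd was lost without wild type 1, wild type 2 or DKO 2 (adjusted p from 0.0542 to 0.0859).

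Collagen chains moved both ways, with 5 rises and 4 falls among 22 tested. Col3a1, the fibrillar collagen of scars and vessel walls, read 300.3 and 155.9 in wild type and 5739.4 and 5499.0 in the DKO (4.67 ± 0.76, adjusted p = 0.00565). Col18a1 (3.35 ± 0.26) and Col14a1 (3.12 ± 0.45) also rose. Col4a3, a basement membrane chain, went from 467.3 and 344.1 to 14 and 33.7 (-3.98 ± 0.50, adjusted p = 0.00221). The fibrillar collagen of the normal stroma, by contrast, was not called: Col1a1 read 912.4 and 698.4 against 825.3 and 1442.5 (0.45 ± 0.37, adjusted p = 0.428). Without wild type 2 there were 2 collagen rises, and Col3a1 was not called (adjusted p = 0.0575); the falls were 1, 2, 2 and 7 without wild type 1, wild type 2, DKO 1 and DKO 2.

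Of 19 tested matricellular genes, 10 rose and 1 fell; of 17 metalloproteinases and inhibitors, 11 rose and none fell, with a median of 2.35. Tnc, for tenascin C of healing tissue, went from 22.2 and 6.4 to 643.9 and 695.9 (5.39 ± 0.76, adjusted p = 0.00344). Postn, for periostin, went from 193.8 and 118.0 to 2832.6 and 2710.5 (4.16 ± 0.31, adjusted p = 0.000334). Mmp13, a collagenase, read 4.5 and 1.2 in wild type and 3238.3 and 1434.6 in the DKO (8.44 ± 1.09, adjusted p = 0.00249), separate by far. Timp1, an inhibitor of these enzymes, rose by 3.89 ± 0.64 (adjusted p = 0.00599). Mmp3 rose by 7.06 ± 1.43 (adjusted p = 0.0129) and was lost without wild type 2, DKO 1 or DKO 2 (0.0519 to 0.107), and Timp1 without wild type 2 (0.0597). The counts without wild type 2 were 5 matricellular genes and 4 metalloproteinases and inhibitors, and without DKO 1 the latter were 7.

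Of 23 genes of TGF-beta and BMP signalling, which govern scarring and stromal cell state, 11 rose and 2 fell. Bmp2 went from 15.2 and 12.8 to 167.6 and 183.7 (3.35 ± 0.48, adjusted p = 0.00367). Inhba, an activin subunit, rose by 3.25 ± 0.46 (adjusted p = 0.0035), and Ltbp2, a matrix protein of the latent TGF-beta binding family, by 4.57 ± 0.65 (adjusted p = 0.00359). Rises numbered 7 without wild type 1 and 4 without wild type 2, and falls 0 or 1 with any array left out. Of 12 corneal endothelium genes, 2 rose and 3 fell, with a median of -0.82. Intensities of 8 of the 12 lay lower in the DKO without overlap, against 34.6% of all genes, and 2 lay higher. Car2, for a carbonic anhydrase, rose from 16.4 and 6.1 to 592.9 and 260.7 (4.83 ± 0.46, adjusted p = 0.000811). Col8a1, a collagen of the endothelium's basement membrane, fell by 2.64 ± 0.74 (adjusted p = 0.0419) and Slc4a11, the endothelial ion transporter, differed by -1.83 ± 0.57 (adjusted p = 0.0602). Col8a2 read 2566.3 and 1999.5 in wild type and 507.0 and 1138.8 in the DKO and did not pass (-1.57 ± 0.48, limma adjusted p = 0.0564). The endothelial falls were 0 without either wild-type array, 2 without DKO 1, 5 without DKO 2 and 7 without the 2 libraries of doubtful Apoe level, and Col8a1 was not called without wild type 1, wild type 2 or DKO 1 (0.173 to 0.174).

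Vessel markers, scarce in a clear cornea, rose in the DKO. Of 20 tested blood endothelium genes, 18 rose and none fell, with a median of 2.96; the summed intensity of the list was 492.4 and 375.0 in wild type and 2798.2 and 2477.1 in the DKO. Plvap, a protein of fenestrated vessel walls, read 13 and 9.8 against 421.3 and 392.8 (4.78 ± 0.59, adjusted p = 0.00212). Selp, the adhesion molecule P-selectin of activated endothelium and platelets, went from 1.6 and 0.8 to 145.4 and 165.3 (5.05 ± 0.40, adjusted p = 0.000403). Rgs5, a pericyte marker, went from 45.3 and 23.1 to 2330.9 and 2099.7 (5.94 ± 0.56, adjusted p = 0.000811). Of 12 tested pericyte and smooth muscle genes, 5 rose and 1 fell (11.3% and 8.67% of all genes did). Of 7 lymphatic genes 5 rose, among them Flt4, the receptor for lymphatic growth factors (3.11 ± 0.39, adjusted p = 0.00213). Angpt1, a ligand that steadies vessels, rose from 6.6 and 5.8 to 58.4 and 89.4 (2.96 ± 0.33, adjusted p = 0.00145). The list of angiogenesis ligands and inhibitors had 5 rises among 16 tested. They included Thbs2, an inhibitor (2.38 ± 0.28, limma adjusted p = 0.00166). Fewer pericyte genes rose without wild type 2 or DKO 2, and fewer genes of the angiogenesis list without either wild-type array.

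Leukocyte genes rose as well. Of 11 tested neutrophil genes, 10 rose (median 4.05), and their summed intensity was 281.6 and 192.9 in wild type and 12002.6 and 17200.2 in the DKO, most of it from S100a8 and S100a9, which keratinocytes also make. Clec4d, a receptor of neutrophils and monocytes, read 5.2 and 5.4 against 597.6 and 725.5 (6.22 ± 0.57, adjusted p = 0.000713). Of 19 macrophage and monocyte genes, 12 rose (median 3.11), with sums of 883.4 and 864.3 against 6915.6 and 11026.7. Tyrobp, a signalling adaptor of myeloid cells, went from 32.7 and 25.7 to 423.3 and 1109.9 (4.40 ± 0.62, adjusted p = 0.00331). Lymphocyte genes were fewer: 3 of 6 tested T and NK cell genes rose, led by Il7r (4.21 ± 0.56, adjusted p = 0.0028), and 0 of 5 B cell genes passed. Another 10 T and NK cell genes on the array were too dim to test. Jchain, of antibody-secreting cells, read 9.6 and 5.5 against 818.6 and 95.5 (4.70 ± 1.62, adjusted p = 0.0799). Of 7 MHC class II and dendritic cell genes 2 rose, H2-Ab1 and H2-Aa, and neither passed without wild type 1, wild type 2 or DKO 2 (0.0627 to 0.193); without DKO 1 the list had 4 rises. The T and NK cell count was 1 without wild type 1 or DKO 2. The part of these cell types in the other rises was not tested.

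Mast cell genes parted, with 5 on the array tested and 5 too dim to test. Hdc, the enzyme that makes histamine, went from 2.5 and 1.5 to 156.6 and 216.0 (5.07 ± 0.82, adjusted p = 0.00552), and the proteases Cpa3 (4.19 ± 0.65) and Cma1 (3.06 ± 0.43) rose. Kit, the stem cell factor receptor, which melanocytes and some epithelia also express, went the other way, from 860.5 and 873.5 to 148.4 and 90.2 (-2.87 ± 0.56, adjusted p = 0.0111). The list thus had 4 rises and 1 fall among 5 tested, and 2 rises without wild type 2; Kit was lost without wild type 1, wild type 2 or DKO 2 (0.0556 to 0.0811), and Hdc without wild type 2 (0.0518).

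Signals that call leukocytes were prominent among the rises. Of 10 tested CXC chemokines, 9 rose, with a median of 4.59. Of 11 tested CC chemokines, 3 rose. Another 4 CXC and 6 CC chemokines on the array were too dim to test. Cxcl5, which attracts neutrophils, read 8.5 and 1.3 in wild type and 341.5 and 2221.2 in the DKO (6.83 ± 0.83, adjusted p = 0.0019). Cxcl1, with the same role, went from 12.3 and 15.2 to 455.8 and 759.2 (5.10 ± 0.68, adjusted p = 0.00284). Both were far above wild type on each DKO array, with the second DKO array higher. Ccl8, which attracts monocytes, rose by 4.24 ± 0.49 (adjusted p = 0.00163). Without wild type 2, 5 CXC chemokines passed. Of 14 genes of the interleukin-1 family and inflammasome, 10 rose and 1 fell (0 without wild type 1, wild type 2 or DKO 1). Il1b went from 18.0 and 13.3 to 190.6 and 1034.2 (4.55 ± 0.67, adjusted p = 0.00396), and Casp1, the protease that activates it, from 6.1 and 1.1 to 182.5 and 253.8 (5.02 ± 0.40, adjusted p = 0.000403). Il33, an alarm cytokine of barrier cells, rose by 3.41 ± 0.23 (adjusted p = 0.000223).

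All 6 tested acute-phase genes rose, with a median of 4.45. Another 4 of the 10 on the array were too dim to test. Members at the floor in wild type, such as Hp, passed the brightness filter only through other arrays. Saa3, a serum amyloid protein made in inflamed tissue, read 3.9 and 7.2 in wild type and 4265.7 and 2500.4 in the DKO (8.51 ± 1.51, adjusted p = 0.00789); 1 array labelled Apoe knockout also reached 2300.5, the other 45.9. Hp, for haptoglobin, went from 1.1 and 1.1 to 755.7 and 329.7 (6.74 ± 0.72, adjusted p = 0.00122). Of 16 complement genes, 10 rose; Cfb, of the alternative pathway, rose by 4.41 ± 0.75 (adjusted p = 0.00673). Interferon-stimulated genes had 1 rise (Iigp1, 2.19 ± 0.47) and 1 fall (Oasl1, -1.68 ± 0.38) among 19 tested, a median of 0.23, and no call when any 1 array was left out; without the 2 libraries of doubtful Apoe level 4 rose. Acute-phase rises were 3 without wild type 1, 2 without wild type 2 and 3 without DKO 1, and Saa3 was lost without either wild-type array (0.0576 and 0.0574). Complement rises were 5 without wild type 2 and 6 without DKO 2, and Cfb was lost without wild type 2 (0.0626).

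**Figure D3:**
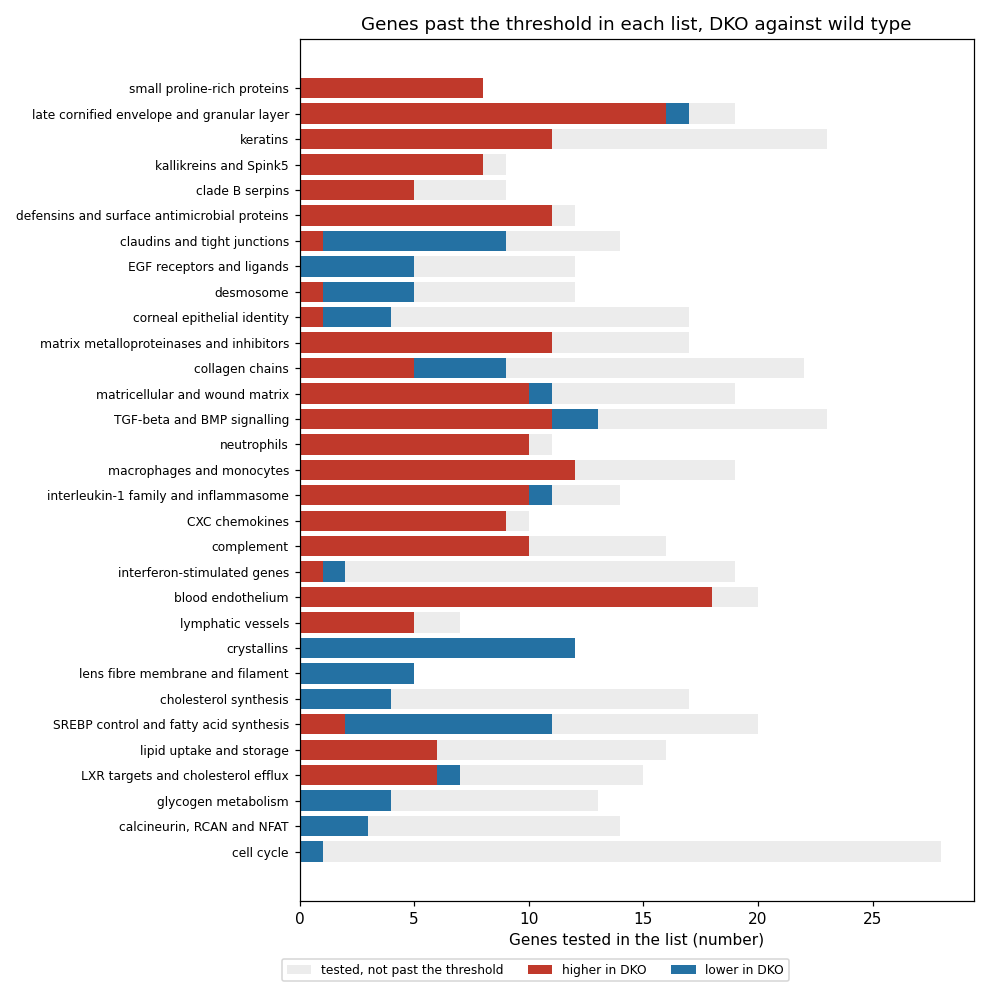
Number of tested genes in each of 31 gene lists that were higher in the DKO (red), lower in the DKO (blue) or not called (grey) at an adjusted p below 0.05. Small proline-rich and blood endothelium lists are almost wholly higher and all 12 tested crystallins are lower, against 11.3% higher and 8.67% lower over all genes.

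Crystallins, the bulk proteins of the lens, were prominent among the falls. All 12 tested fell (8.67% of all genes did), with a median of -5.36, and 2 more on the array were too dim to test. The summed intensity of the 14 on the array was 15929.9 and 11366.3 in wild type and 550.1 and 532.3 in the DKO. Crygd read 2132.3 and 1472.1 against 3.6 and 0.2 (-8.41 ± 0.61, adjusted p = 0.000294). Crygf went from 1522.3 and 884.9 to 3.3 and 3.9 (-7.34 ± 0.38, adjusted p = 6.7e-05). Crygd and Crygf were thus at the floor on both DKO arrays, while Crygb read 21.2 and 9.0 and Crygs 32.7 and 5.2 there. All 5 tested genes of lens fibre membranes and filaments fell too, among them Lim2 (-3.29 ± 0.57, adjusted p = 0.00725) and Bfsp2 (-2.39 ± 0.40, adjusted p = 0.00643). Another 3 of that list on the array were too dim to test. These genes are specific to lens fibres, and their sum was 405.1 and 332.9 in wild type and 48.0 and 53.3 in the DKO; their part in the crystallin result was not tested. The crystallin sum was also lower in both single knockouts, at 2108.1 and 1621.8 on the arrays labelled Apoe knockout and 1149.3 and 1305.5 on those labelled Dscr1 knockout. Lens fibre falls were 0 without either wild-type array and 3 without either DKO array.

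Retinal transcripts were bright on 1 DKO array. The photoreceptor list summed to 941.5 and 286.4 in wild type and to 9677.8 and 364.6 in the DKO. Sag, for arrestin of rods, read 126.4 and 20.7 against 1324.4 and 7.4, and Pdc, for phosducin, 135.6 and 7.7 against 1707.2 and 7.3. Of 14 tested genes 1 rose, Rdh12, which went from 15.3 and 7.2 to 193.2 and 152.9 (3.62 ± 0.56, adjusted p = 0.00477); without DKO 2, 11 rose. Pigment cell and skeletal muscle genes, the other tissues next to the cornea, summed to 1335.5 and 1177.0 against 1428.7 and 698.6 and to 248.7 and 283.0 against 143.2 and 147.3. Of 11 tested pigment genes, 3 fell and 1 rose, with a median of -1.02. Without overlap, 7 lay below wild type, against 34.6% of all genes. Fewer fell without either wild-type array or DKO 2. Of 4 tested muscle genes, 2 fell. Ttr, of the pigment list, read 28.6 and 4.5 in wild type, 3.8 on DKO 2 and 336.1 on DKO 1. The part of this array's retinal signal in other results was not tested; 1539 genes were called without it, of which 1380 were among the calls of the whole comparison in the same direction.

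**Figure D4:**
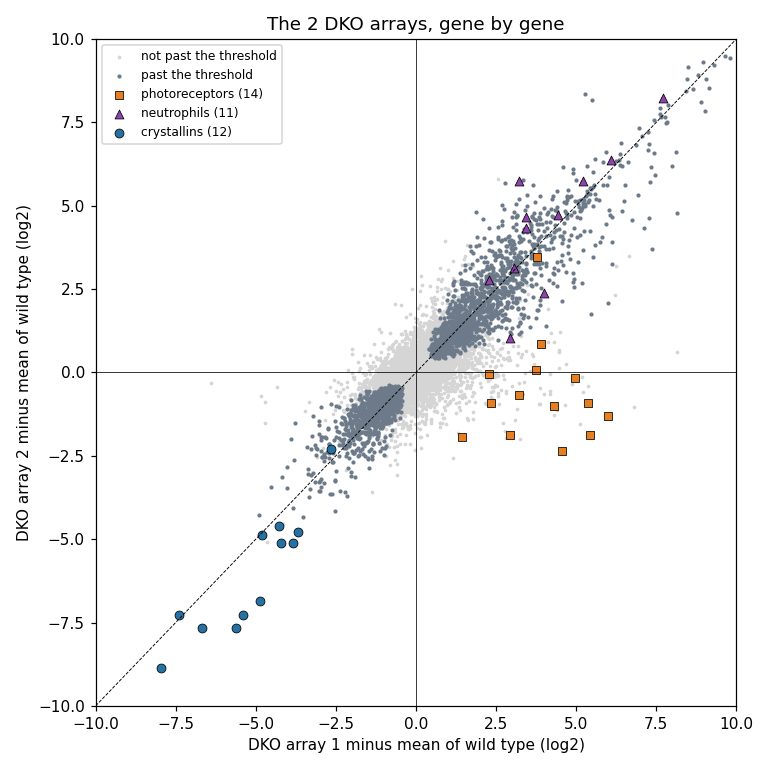
Difference of each DKO array from the wild-type mean in log2(intensity + 3.6) for all tested genes, with DKO 1 on the x axis and DKO 2 on the y axis. Crystallins (blue circles) fall on both arrays and neutrophil genes (purple triangles) rise on both, while most photoreceptor genes (orange squares) rise on DKO 1 only.

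Lipid genes bear on the question named in the study's title, a disturbance of cholesterol metabolism. Of 17 tested enzymes of cholesterol synthesis, 4 fell and none rose, with a median of -0.55. Tm7sf2, a sterol reductase, read 283.9 and 288.1 in wild type and 143.1 and 151.5 in the DKO (-0.94 ± 0.15, adjusted p = 0.00586). Sqle, the squalene epoxidase, read 2066.7 and 1811.5 against 897.0 and 1303.8 (-0.84 ± 0.20, adjusted p = 0.0232). Hmgcs1, an early enzyme of the pathway, read 4603.4 and 3607.1 against 2891.0 and 3120.9 and did not pass (-0.44, adjusted p = 0.173). Intensities of 12 of the 17 lay lower in the DKO without overlap, against 34.6% of all genes. The 4 calls became 0 without either wild-type array, 1 without DKO 1 and 5 without DKO 2, and quantile normalization gave 7.

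Of 20 genes of SREBP control and fatty acid synthesis, which build and desaturate fatty acids, 9 fell and 2 rose. Elovl6, an elongase, went from 1124.5 and 1042.9 to 275.7 and 509.5 (-1.52 ± 0.27, adjusted p = 0.00743). Fads2, a desaturase, went from 271.9 and 241.9 to 73.5 and 105.7 (-1.50 ± 0.31, adjusted p = 0.0133). Srebf1 and Srebf2, for the transcription factors that drive both pathways, fell by 0.89 and by 0.79 (adjusted p = 0.00925 and 0.0137). The 2 rises were 1 without wild type 1, wild type 2 or DKO 1 and 3 without DKO 2. Me1, which makes NADPH for lipid synthesis, rose from 44.8 and 35.4 to 378.8 and 399.5 (3.18 ± 0.26, adjusted p = 0.000464). The 9 falls were 0 without either wild-type array, 3 without DKO 1 and 6 without DKO 2; Elovl6 missed the threshold without either wild-type array (0.0605 and 0.0578). The sterol element TCACNCCAC, searched on both strands, stood within 250 bases before 1 of 14 cholesterol synthesis genes (Hmgcs1; 7.14%), before 0 of 17 genes of the SREBP list, and before 331 of 27025 genes of the promoter table (1.22%).

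Of 16 tested genes of lipid uptake and storage 6 rose and none fell, and of 15 LXR targets and efflux genes 6 rose and 1 fell. Over all genes, 11.3% rose and 8.67% fell. Without overlap, 11 of the 16 uptake genes lay above wild type and 0 below. Of the 15 efflux genes, 7 lay above and 6 below. The shares over all genes were 31.8% above and 34.6% below. Fabp4, a fatty acid carrier of fat cells and macrophages, read 7.0 and 3.5 in wild type and 1379.3 and 449.0 in the DKO (6.51 ± 0.68, adjusted p = 0.00114). Abca1, the transporter that exports cholesterol to apolipoproteins, went from 253.3 and 172.8 to 1269.5 and 1148.4 (2.51 ± 0.30, adjusted p = 0.00179). Cyp7b1, an oxysterol hydroxylase, went from 19.2 and 14.5 to 301.2 and 341.6 (4.0 ± 0.25, adjusted p = 0.000161). Apoc1, beside Apoe in the genome, read 333.9 and 384.7 against 16.6 and 12 (-4.35 ± 1.42, adjusted p = 0.0688). Macrophages carry several of these genes (Cd36, Msr1, Abca1), and their markers were higher on both DKO arrays as given above; their part in these rises was not tested. The uptake count was 2 without either wild-type array and 3 without DKO 2, and the efflux count was 3 without wild type 2. Without the 2 libraries of doubtful Apoe level, 4 efflux genes fell; the 1 fall of the full fit was lost without wild type 1, wild type 2 or DKO 1.

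**Figure D5:**
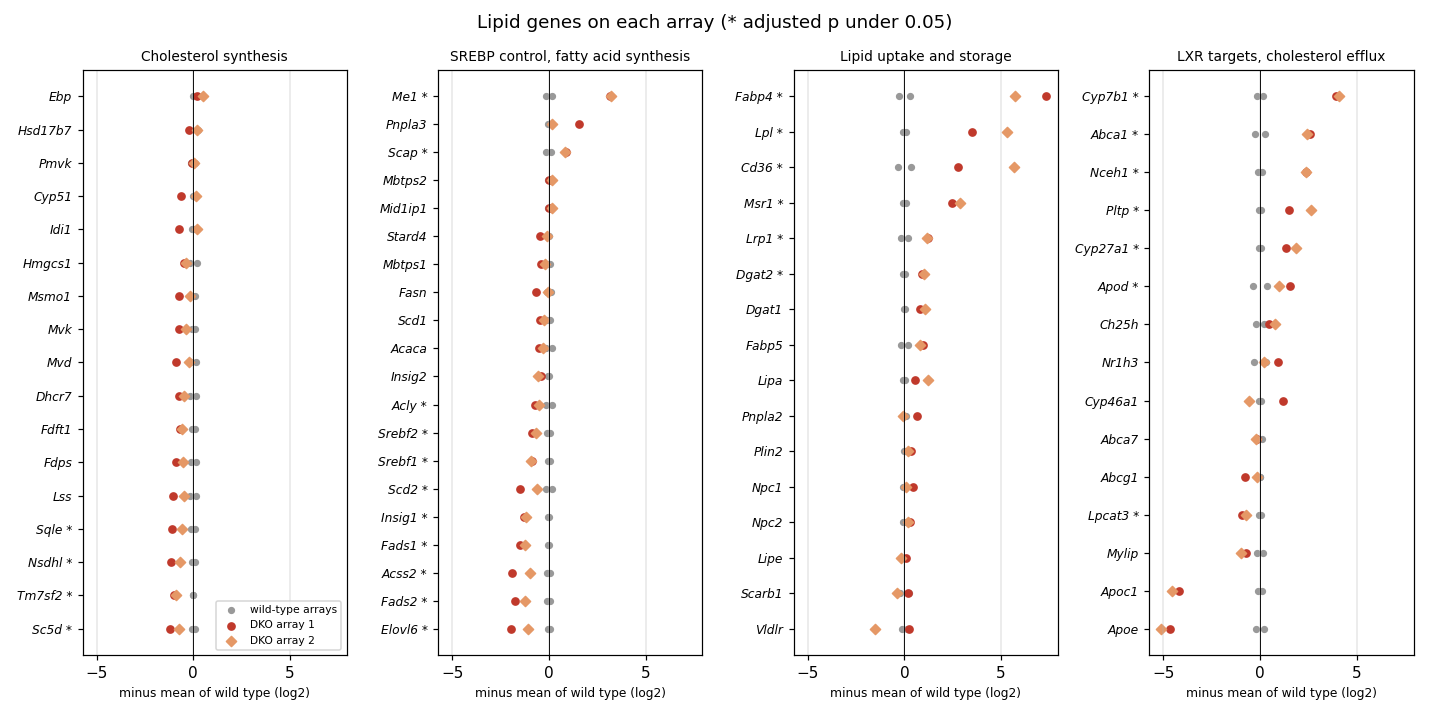
Difference from the wild-type mean in log2(intensity + 3.6) on each DKO array for the tested genes of 4 lipid lists; an asterisk marks an adjusted p below 0.05. Cholesterol synthesis and SREBP genes lie mostly below 0 and uptake genes mostly above it, while efflux genes lie on both sides.

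Calcineurin, its RCAN inhibitors and the NFAT factors had 3 falls and no rise among 14 tested, with a median of 0.04. Apart from Rcan1, Nfatc2 went from 253.4 and 269.2 to 112.9 and 95.2 (-1.30 ± 0.28, adjusted p = 0.0163) and Ppp3ca, a catalytic subunit, from 945.1 and 929.8 to 669.1 and 570.2 (-0.60 ± 0.16, adjusted p = 0.0373). With all probe sets of a gene averaged, the differences were -0.30 for Nfatc2 and -0.30 for Ppp3ca, and neither passed (adjusted p = 0.51 and 0.239). The falls of the list numbered 0 without wild type 1, wild type 2 or DKO 2 and 1 without DKO 1. Around the deleted genes, 2 of 11 tested neighbours of Rcan1 rose (Runx1, 1.32 ± 0.23; Slc5a3, 0.72 ± 0.19). Of 11 neighbours of Apoe, Bcl3 (1.66 ± 0.39) and Relb (1.25 ± 0.35) rose, and Nectin2 (-1.63 ± 0.24) and Bcam (-1.23 ± 0.27) fell. Averaged over its probe sets, Slc5a3 differed by 0.02 (adjusted p = 0.972). Of these 6 neighbours only Nectin2 passed with each of the 4 arrays left out in turn.

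Of 13 tested glycogen genes, 4 fell and none rose. Pygl, the phosphorylase that breaks glycogen down, read 1325.2 and 1350.6 in wild type and 77.9 and 183.9 in the DKO (-3.44 ± 0.68, adjusted p = 0.0115). Gyg, for glycogenin, the primer of glycogen, went from 4135.9 and 3740.4 to 864.2 and 808.6 (-2.23 ± 0.34, adjusted p = 0.00435). Of 21 antioxidant genes 6 rose and 1 fell. Gpx2, an epithelial glutathione peroxidase, went from 18.3 and 13.7 to 1101.9 and 945.4 (5.72 ± 0.24, adjusted p = 2.57e-05), and Gclm, which serves glutathione synthesis, from 143.3 and 164.6 to 560.4 and 530.4 (1.80 ± 0.18, adjusted p = 0.001). Hmox1, which breaks down haem, rose by 2.60 ± 0.40 (adjusted p = 0.00449). Glycogen falls were 1 without wild type 1, wild type 2 or DKO 1, and Pygl missed the threshold in those fits (0.0712 to 0.0829).

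Wnt, prostaglandin, retinoid and circadian genes moved in both directions or in small numbers. Of 18 Wnt ligands and inhibitors 4 rose and 5 fell: the secreted inhibitors Sfrp2 (60.8 and 19.2 to 1005.8 and 1472.3; 4.99 ± 0.53, adjusted p = 0.00125), Frzb (4.48 ± 0.43) and Wif1 (3.91 ± 0.48) rose, while the inhibitor Dkk1 fell (-2.48 ± 0.53). Of 13 prostaglandin and lipoxygenase genes 5 rose and 2 fell; Ptger4, a prostaglandin E2 receptor, went from 19.5 and 15.7 to 199.0 and 252.1 (3.43 ± 0.23, adjusted p = 0.000201). Of 11 retinoid genes 2 rose, among them Crabp2, a carrier of retinoic acid, from 23.0 and 18.3 to 767.8 and 1317.0 (5.39 ± 0.66, adjusted p = 0.00203). In the circadian list 1 of 17 rose (Nfil3, 4.10 ± 0.47) and 3 fell, among them Hlf (-1.98 ± 0.38) and Dbp (-1.15 ± 0.23). Cell cycle genes had 0 rises and 1 fall, Ccnd1 (-0.74 ± 0.17), among 28 tested. Wnt falls were 1 without either wild-type array, 3 without DKO 1 and 3 with probe sets averaged; clock falls ranged from 0 without wild type 2 to 5 without DKO 1; Dkk1, Hlf, Dbp and Ccnd1 each missed the threshold in at least 1 of the 4 fits. Prostaglandin falls were 0 without either wild-type array and 1 without DKO 1. Retinoid rises were 1 without wild type 2, and 2 retinoid genes fell without DKO 2.

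Outside every list, the 12 largest rises were of varied kinds. Calm4, an epidermal calcium-binding protein, read 20 and 30.8 in wild type and 6528.0 and 5224.1 in the DKO (7.68 ± 0.33, adjusted p = 2.57e-05). Them5 went from 2.3 and 3.4 to 1255.2 and 1560.0 (7.77 ± 0.34, adjusted p = 2.68e-05), and Mt4, a metallothionein of stratified epithelium, from 3.7 and 13.2 to 2487.3 and 1986.9 (7.65 ± 1.27, adjusted p = 0.00607). Teddm3 went from 1.2 and 3.6 to 1267.4 and 1191.6 (7.71 ± 0.71, adjusted p = 0.000745). Ly6d, Lce1f, Serpina3n, Endou, Chil4 and Lce1c rose by 6.70 to 7.50. Srgn, a proteoglycan of leukocyte granules, went from 24.5 and 17.1 to 2041.5 and 2809.7 (6.64 ± 0.41, adjusted p = 0.000161). Dio2, which activates thyroid hormone, rose unevenly, from 12.1 and 7.3 to 3733.0 and 359.0 (6.48 ± 0.93, adjusted p = 0.00367). Lce1c was lost without wild type 1, wild type 2 or DKO 1 (0.0771 to 0.0848) and Mt4 without wild type 1 (0.0514).

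The largest falls outside the lists were of varied kinds. Gkn1, for gastrokine, read 138.3 and 197.9 in wild type and 8.1 and 6.4 in the DKO (-3.97 ± 0.45, adjusted p = 0.00148). Adh6b, of the alcohol dehydrogenases, went from 424.2 and 473.6 to 41.3 and 30.4 (-3.53 ± 0.24, adjusted p = 0.000226). Frem2, a basement membrane protein that joins epithelium to the tissue below, went from 372.6 and 504.9 to 34.2 and 18.1 (-3.93 ± 0.63, adjusted p = 0.00552). Slc16a12, a transporter of the monocarboxylate family, went from 534.3 and 773.2 to 58.7 and 74.9 (-3.21 ± 0.48, adjusted p = 0.00434). Paqr5 fell by 3.41 ± 0.43 (adjusted p = 0.00227). Med12l fell by 3.65 ± 0.44 in its brightest probe set, and another of its probe sets moved the opposite way; with its probe sets averaged the difference was -0.89 (adjusted p = 0.0566). Frem2 was lost without wild type 2 (0.056).

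How the double knockout differed from the single Dscr1 knockout was tested directly, since both lack Dscr1. On the arrays labelled Dscr1 knockout, Lor read 1862.9 and 1944.5, a difference of 0.75 ± 0.17 from the DKO (adjusted p = 0.303), and Krt10 read 5532.2 and 4789.1 (-0.07 ± 0.21, adjusted p = 0.923). The blood endothelium list summed to 2101.2 and 3065.5 on those arrays and to 2798.2 and 2477.1 in the DKO. For the neutrophil list, the sums were 9507.9 and 20626.6 against 12002.6 and 17200.2. No gene of either list passed in this comparison. Of 12732 genes, 3 were higher in the DKO (0.0236%) and 0 were lower at an adjusted p below 0.05, and 1365 had an unadjusted p below 0.05 (10.7%; limma). Ang, for the ribonuclease angiogenin, read 959.2 and 492.6 in the DKO, 1.3 and 7.9 in the Dscr1 knockout and 114.5 and 101.5 in wild type (double minus single knockout 6.52 ± 0.45, adjusted p = 0.00793). Rnase2b, a ribonuclease of the same superfamily, read 474.0 and 489.3, 24.6 and 12.1, and 6.6 and 6.4 in that order (4.53 ± 0.35, adjusted p = 0.0102). Pnp, a purine salvage enzyme, read 1617.9 and 2046.4, 605.5 and 576.4, and 2936.8 and 2648.7 (1.62 ± 0.16, adjusted p = 0.0435). RefSeq places these genes near each other on chromosome 14. The count was 18 without the 2 libraries of doubtful Apoe level, 0 in a fit of the 2 groups alone, and 4, 62, 79 and 92 without DKO 1, DKO 2, Dscr1 knockout 1 and Dscr1 knockout 2. A gene that misses the threshold here is not shown to be alike in both genotypes. DKO 2 also carried a sex-linked pattern opposite to that of all single-knockout arrays, as given above.

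Against the single Apoe knockout, the double knockout differed widely: 1388 genes were higher (10.9%) and 1084 lower (8.51%), 19.4% in all, and 34.3% had an unadjusted p below 0.05. Lor read 15.4 and 14.1 and Krt10 197.1 and 153.5 on the arrays labelled Apoe knockout, all far below the DKO. This comparison and the one with wild type share the DKO arrays. Its 2472 calls were 1304 without DKO 1, 767 without the library labelled Apoe knockout 1 and 496 without the library labelled Apoe knockout 2.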

How the data were processed

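RNA of dissected whole corneas was extracted with RNeasy, and biotinylated cRNA for Affymetrix arrays was prepared from 100 ng of it, per the labels' protocols. The authors deposited 1 linear signal intensity per probe set (45101 probe sets), already scaled; the values show that the mean of each array, with 2% trimmed at each end, equals 100.0. The signal software and its background correction are not named in these sources, and no detection calls were used. Probe sets with 1 gene symbol in the platform annotation were kept (34958; 932 had several and 9211 none). Of these, 34754 matched a gene ID of the RefSeq gene table. Each gene was represented by its brightest probe set over the intact arrays (9012 genes have several). Intensities were turned into log2(intensity + 3.6), 3.6 being the 20th percentile of all values. Genes with a mean log2 over the 8 intact arrays below 3.749 (the 40th percentile) were not tested, except Rcan1 and Apoe.

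The test was limma (version 3.58.1, R 4.3.3; lmFit, then eBayes with an intensity trend) and used all 8 intact arrays in 4 genotype groups, so that every group adds to 1 estimate of the spread (4 residual degrees of freedom, 3.78 prior), and p-values were adjusted by Benjamini-Hochberg over the 12732 genes at a threshold of 0.05. P-values measure the spread between these samples, and 2 arrays a group limit the precision. Scripts were tested on simulated data. Motifs were searched in RefSeq promoter sequence (GRCm38.p6), 250 bases before each start, and up to 40 bases either side were printed.

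The gene lists, the comparison and the rule for named genes were chosen with earlier results of these data known. By that rule, Rcan1 and Apoe, up to 4 called members of each list with the largest change (or 2 with the lowest p where none passed), and the 12 largest rises and 12 largest falls of no list could be named. Other genes given with values, such as Krt12, Ivl, Flg, Col1a1, Defb1, Hmgcs1, Sag and Rnase2b, were named after their values were seen. List members without a probe set of 1 symbol were not analysed here.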

Additional observations from a re-analysis of the deposited data

How the results depend on the processing

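Alternatives changed 1 choice at a time: the added constant (1.2 or 6.4), the filter (60th percentile or none), averaging or separating probe sets, quantile normalization, a variance prior without the intensity trend, a fit of the compared groups alone, a replicate block, leaving out the 2 libraries of doubtful Apoe level, and leaving out each array. No result reversed. Genes higher in the DKO than in wild type numbered 1433 in the main setting and 542 to 1295 with 1 array left out; genes lower numbered 1104, with 130 to 903 with 1 array left out and 1665 when every probe set was tested by itself. Against the Dscr1 knockout, the 3 calls became 1 with the filter at the 60th percentile, 0 with only the groups compared, 18 without the 2 doubtful libraries, and 4 to 92 with 1 array left out. Against the Apoe knockout, the 2472 calls were 496 to 2118 with 1 array left out. Of 232 named genes, 225 were called; all 225 kept their direction and 122 kept their call under every alternative that tested them. With at least 1 array left out 100 lost it, 25 of them with any 1, and 3 more (Egr3, Med12l and Mitf) lost it with probe sets averaged. Averaging probe sets ended the calls of 15 named genes and the other processing settings those of at most 9 each.

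Replicate numbers are shared between genotypes, but only 2 pairs exist and the correlation of same-numbered deviations was 0.103 between wild type and DKO and -0.044 to 0.046 for the other pairs. With the number as a replicate block, 1318 genes were higher and 901 lower, 2 differed from the Dscr1 knockout and 2136 from the Apoe knockout; 7 named genes lost their call and 2 gained one (Apoe and Jchain). Signals near 3.6 have no reliable order, and fold sizes from them depend on the constant.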

Other observations

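Chil4, a chitinase-like protein, read 265.0 and 2254.8 in the DKO, 6.5 and 11.2 on the arrays labelled Dscr1 knockout, 2.6 and 5.7 on those labelled Apoe knockout and 3.0 and 3.7 in wild type. Its difference from wild type was 6.81 ± 0.85 on the log2 scale (limma, adjusted p = 0.00212), and its difference from the Dscr1 knockout was 5.99 ± 0.85 and did not pass (adjusted p = 0.187). Ppp1r3c, a glycogen-targeting subunit, read 139.1 and 213.7 in the DKO and 4731.1 and 3780.1 in wild type, while the arrays labelled Dscr1 knockout lay far apart at 2327.5 and 183.0. The difference of Ppp1r3c between the DKO and the Dscr1 knockout was -1.91 ± 0.95 (adjusted p = 0.524). Of 22 immediate early genes, which respond within minutes to stress and growth factors, 4 rose and 1 fell in the DKO against wild type. Egr3 went from 3.2 and 3.5 to 64.5 and 54.8 (3.18 ± 0.46, adjusted p = 0.0038), with 1.57 and no call when its probe sets were averaged (adjusted p = 0.0872), and Fos read 1233.6 and 1321.9 against 1319.4 and 527.8. The rises numbered 10 without the 2 libraries of doubtful Apoe level and 1 without wild type 1, wild type 2 or DKO 1.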
